A study of Mus musculus with 10 samples.

Results

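The genes described here are 10 genes of the Id family and of bone morphogenetic protein (BMP) signaling, *Id1*, *Id2*, *Id3*, *Id4*, *Bmp1*, *Bmp4*, *Bmpr1a*, *Bmpr2*, *Smad6* and *Smad7*. They were picked by symbol from the 55359 genes of the authors' table. C2C12, a line of mouse myoblasts that forms myotubes in low-serum medium, received either a control siRNA (si-Control, 5 libraries) or an siRNA that targets *Fndc1* (si-*Fndc1*, 5 libraries). *Fndc1* encodes an extracellular protein with fibronectin type III domains, and the study asked what its knockdown changes in differentiating muscle cells. The labels place all 10 libraries at 4 days of differentiation in horse serum after transfection with 100 nM siRNA, whereas the description of the series places the harvest at a time counted from transfection. The 2 groups shared the cell line, the medium and the time point and differed, by the labels, only in the siRNA.

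Levels are given as the authors' FPKM (fragment counts divided by a length for each gene and by library size). The length implied by counts and FPKM was 7062 bases for *Bmpr1a* and 19996 for *Bmpr2*, for example. Comparisons of levels between genes depend on these lengths, which were not checked. Fold changes are log2 ratios of si-*Fndc1* over si-Control, from edgeR's quasi-likelihood test on the deposited counts, with Benjamini-Hochberg adjustment over the 13548 genes that had a mean of at least 0.5 FPKM. A gene was called at an adjusted p-value under 0.05. Of the 10 genes, 9 were tested this way, and *Id4* lay below the minimum. Counts summed to between 66771605 and 75995168 in the si-Control libraries and between 56332844 and 72839369 in the si-*Fndc1* libraries. The targeted gene, *Fndc1*, fell from 27.8 ± 2.04 FPKM (SD, n = 5) to 20.9 ± 1.70 FPKM (SD, n = 5), a log2 fold change of -0.40 (SE 0.07, adjusted p = 0.000934), so that most of its transcript remained after knockdown. The labels do not say whether the 5 libraries of a group came from separate cultures, and p-values measure only the spread between these libraries, which may be technical. In bulk RNA, fewer cells of a type and less RNA per cell cannot be told apart.

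Id proteins are helix-loop-helix proteins that lack a basic region and cannot bind DNA. They dimerize with E proteins, the partners that MyoD needs to bind E boxes in muscle genes, and so hold back myogenic differentiation. BMP ligands bind type I and type II receptors on the cell surface, which phosphorylate Smad1, Smad5 and Smad9, and these enter the nucleus with Smad4. The Id genes are among the best known targets of this pathway, and *Smad6* and *Smad7*, the inhibitory Smads that block receptors and Smads in turn, are induced by it as well. In C2C12 cells, added BMP is known to stop myotube formation and to turn the cells toward osteoblast-like gene expression.

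The genes that were called moved in both directions. *Id2*, the Id gene with the highest mean level, and *Bmpr1a*, a type I receptor, rose. *Smad7* and *Bmp1*, a secreted protease, fell. *Id1*, *Id3*, *Bmp4*, *Bmpr2* and *Smad6* were not called. The 4 called genes of 9 stand beside 34.4% called among all tested genes. By direction, the 2 that rose stand beside 17.3% of all genes called as higher, and the 2 that fell beside 17.2% called as lower. The median log2 fold change was -0.12 over the 9 genes and 0.00 over all tested genes. Of the 9 genes, 4 had groups that did not overlap in CPM, the counts scaled to library size, beside 25.1% of all tested genes. They were the 4 called genes, which had been picked by a small p-value, so that this adds no separate support.

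**Figure D1:**
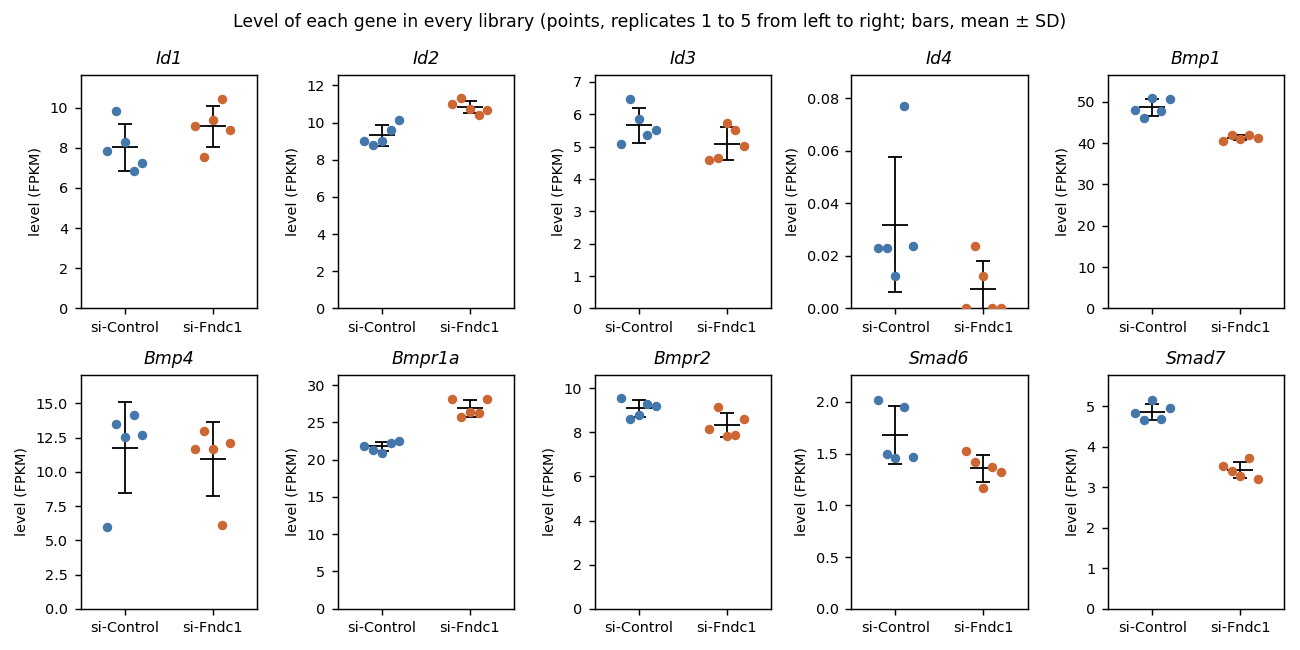
The 10 panels plot the FPKM of each gene in every library (points, replicates 1 to 5 from left to right) with the mean and SD of the 5 libraries of a group. *Id2* and *Bmpr1a* lie higher and *Bmp1* and *Smad7* lower in all 5 si-*Fndc1* libraries than in any si-Control library, and *Bmp4* has 1 low library in each group.

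These fold changes were read beside a trend that ran across the transcriptome. Genes with GC-poor transcripts tended to be higher and genes with GC-rich transcripts lower in si-*Fndc1*. Over the 11185 tested genes with a known GC content, the Spearman correlation between fold change and GC content was -0.523, a description across genes of the same libraries, which are not independent replicates. The median log2 fold change was 0.16 for genes below the lower quartile of GC content (45.7%) and -0.17 for genes above the upper quartile (55.2%). Of the 4 called genes, *Bmpr1a* (41.3% GC) and *Id2* (42.4%) are GC-poor, and *Smad7* (56.9%) and *Bmp1* (58.2%) are GC-rich. The fit was therefore repeated with each library's trend of counts with transcript GC content and length removed, called the GC-corrected fit here. It called 22.7% of all genes, and 2 of the 9, *Bmpr1a* and *Smad7*. The targeted gene, *Fndc1*, kept its call at a smaller size, a log2 fold change of -0.22 (adjusted p = 0.0104) in place of -0.40. The source of the trend was not tested, and no fit corrected for GC content without length.

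**Figure D2:**
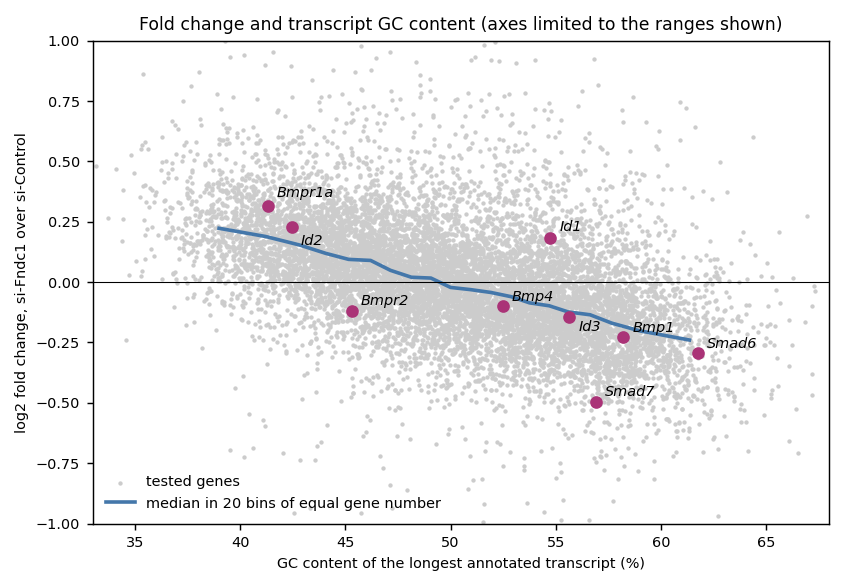
The log2 fold change of each tested gene (vertical axis) is plotted against the GC content of its longest annotated transcript in percent (horizontal axis), with a line for the median in 20 bins of equal gene number. *Id2*, *Bmp1* and *Id3* lie near the line, whereas *Smad7* and *Bmpr2* lie below it and *Id1* and *Bmpr1a* above it.

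The promoters of the genes differ in base composition and in short motifs. RefSeq windows on GRCm38.p6, from 250 bases before to 50 after the annotated start, were matched by symbol for 7 of the 10 genes. No window was found for *Id1*, nor for *Bmp1* and *Smad7*, which were both called, so that their motifs were not read. The 4 windows printed here belong to an Id gene and a receptor that rose, and to an Id gene and an inhibitory Smad that were not called, so that motifs linked to BMP signaling can be seen side by side. Capitals mark the BMP-responsive Smad1 and Smad5 element GGCGCC, the palindromic Smad element GTCTAGAC, and the shorter Smad box CAGAC or, on the other strand, GTCTG. The motifs were chosen after their matches had been seen.
*Id2*, chr12:25096043-25096342, minus strand: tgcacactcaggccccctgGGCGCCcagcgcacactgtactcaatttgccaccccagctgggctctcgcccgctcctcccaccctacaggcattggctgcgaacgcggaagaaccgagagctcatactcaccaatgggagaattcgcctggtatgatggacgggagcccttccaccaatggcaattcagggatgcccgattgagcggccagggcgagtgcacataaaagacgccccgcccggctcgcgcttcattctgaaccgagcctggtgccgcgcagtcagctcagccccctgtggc
*Id3*, chr4:136143572-136143871, plus strand: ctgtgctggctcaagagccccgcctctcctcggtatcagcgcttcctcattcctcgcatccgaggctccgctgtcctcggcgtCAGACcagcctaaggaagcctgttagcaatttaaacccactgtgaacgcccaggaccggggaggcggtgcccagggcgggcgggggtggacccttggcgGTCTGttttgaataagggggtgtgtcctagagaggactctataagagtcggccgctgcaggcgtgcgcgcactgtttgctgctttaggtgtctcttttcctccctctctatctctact
*Bmpr1a*, chr14:34502497-34502796, minus strand: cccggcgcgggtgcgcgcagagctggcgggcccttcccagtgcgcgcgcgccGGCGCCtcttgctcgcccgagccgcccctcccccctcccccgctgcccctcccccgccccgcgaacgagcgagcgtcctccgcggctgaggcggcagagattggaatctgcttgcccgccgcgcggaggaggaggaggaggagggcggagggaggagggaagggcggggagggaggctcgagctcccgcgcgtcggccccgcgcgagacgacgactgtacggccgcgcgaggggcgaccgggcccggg
*Smad6*, chr9:64022010-64022309, minus strand: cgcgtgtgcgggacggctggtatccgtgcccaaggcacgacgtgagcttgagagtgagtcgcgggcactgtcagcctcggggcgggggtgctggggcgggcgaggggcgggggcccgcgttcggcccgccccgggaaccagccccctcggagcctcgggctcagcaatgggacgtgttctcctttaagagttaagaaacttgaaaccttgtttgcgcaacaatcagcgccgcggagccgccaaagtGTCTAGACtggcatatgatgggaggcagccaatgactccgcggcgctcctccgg

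The windows of *Id2*, *Id4*, *Bmpr1a* and *Bmpr2* each held GGCGCC once, a palindrome that 11.9% of 32851 RefSeq windows hold. Counted from the start, it began at -231 in *Id2*, -148 in *Id4*, -198 in *Bmpr1a* and -105 in *Bmpr2*. GGCGCC holds only G and C, and the 7 windows had from 59.3% to 79.3% GC. The share over all windows was not matched for GC content, so that no enrichment was read from it. The *Smad6* window was the only one of the 7 with the 8-base palindrome GTCTAGAC, which began at -4. It occurs in 70 of all windows (0.213%). The *Id3* window held the Smad box CAGAC on the plus strand, beginning at -167, and its reverse complement, at -68. CAGAC is common, on either strand of 49.6% of all windows. E boxes, CANNTG, which MyoD and E proteins bind, were searched as well. They occur in 72.3% of all windows and were present in the windows of *Id2*, *Bmp4* and *Smad6*. A match is a description of letters and does not show a bound site. The *Bmpr1a* window had 79.3% GC and the *Id2* window 63.3%, although both transcripts are GC-poor.

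By FPKM, *Bmp1* was the highest in si-Control, followed by *Bmpr1a*, and the ranges of both lay apart from each other and from all other genes of the set. *Bmp4*, *Id2*, *Bmpr2* and *Id1* followed with overlapping neighbours in that order, then *Id3* and *Smad7*, whose ranges also overlapped. *Smad6* was lower than these in every library, and *Id4* was nearly absent. Si-*Fndc1* kept *Bmp1* and *Bmpr1a* in the first 2 places and *Smad7*, *Smad6* and *Id4* in the last 3.

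*Id2* (ENSMUSG00000020644, listed on chromosome 12 from 25143798 to 25147139, minus strand) encodes an Id protein that is widely expressed in proliferating progenitors. Its level in si-Control libraries 1 to 5 was 9.01, 8.77, 9.02, 9.61 and 10.1 FPKM. In si-*Fndc1* libraries 1 to 5 it was 11.0, 11.3, 10.7, 10.4 and 10.7 FPKM. Every si-*Fndc1* library lay above every si-Control library, although the highest control and the lowest knockdown library were close. The mean rose from 9.31 ± 0.549 to 10.8 ± 0.341 FPKM (SD, n = 5 each), a ratio of 1.16. A two-sided exact permutation test on FPKM gave p = 0.00794, the lowest p possible with 5 libraries a group. By edgeR, *Id2* had a log2 fold change of 0.23 (SE 0.05, adjusted p = 0.00596). The call did not hold in the GC-corrected fit, where the log2 fold change was -0.06 (adjusted p = 0.589).

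*Id1* (ENSMUSG00000042745, chromosome 2 from 152578171 to 152579330, plus strand) is the Id gene most often used as a readout of BMP signaling. In si-Control its level was 7.84, 9.85, 8.30, 6.85 and 7.27 FPKM, and in si-*Fndc1* 9.10, 7.53, 9.39, 10.4 and 8.87 FPKM. The groups overlapped, with control library 2 above all but 1 of the knockdown libraries. Their means were 8.02 ± 1.16 and 9.06 ± 1.04 FPKM (SD, n = 5 each; two-sided exact permutation test, p = 0.175). *Id1* was not called at a log2 fold change of 0.18 (SE 0.11, adjusted p = 0.234), and it was 0.09 in the GC-corrected fit (adjusted p = 0.523). Without si-Control replicate 2 the difference of the means was 1.49 FPKM (two-sided exact permutation test, p = 0.0476), and edgeR's adjusted p stayed at 0.0657 or above whichever single library was left out.

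*Id3* (ENSMUSG00000007872, chromosome 4 from 135870808 to 135872703, plus strand) is often regulated together with *Id1*. It lay at 5.08, 6.48, 5.87, 5.36 and 5.52 FPKM in si-Control and 4.58, 4.65, 5.72, 5.51 and 5.02 FPKM in si-*Fndc1*. Those ranges overlapped. *Id3* was not called, with a log2 fold change of -0.14 (SE 0.09, adjusted p = 0.248) and of -0.16 in the GC-corrected fit (adjusted p = 0.165). The means were 5.66 ± 0.537 and 5.09 ± 0.508 FPKM (SD, n = 5 each; two-sided exact permutation test, p = 0.111). Without si-Control replicate 2 the difference of the means went from -0.567 to -0.364 FPKM and the log2 fold change to -0.092 (adjusted p = 0.460).

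*Id4* (ENSMUSG00000021379, chromosome 13 from 48414704 to 48419502, plus strand), an Id gene best known from neural and mammary cells, was close to absent. Its counts were 8, 8, 4, 24 and 7 in si-Control and 0, 8, 4, 0 and 0 in si-*Fndc1*. The highest level was 0.0770 FPKM, in si-Control replicate 4, and libraries without a count are listed at 0.0001 FPKM. The exact permutation test gave p = 0.0476 on FPKM and p = 0.0556 on CPM, and small counts in the table favor multiples of 4, so that 1 count may not stand for 1 read. Leaving out any of 6 single libraries also took the p on FPKM above 0.05, to at most 0.0794. No direction was read from these values.

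The Id genes are also given as a pool. The sum of *Id1*, *Id2*, *Id3* and *Id4* ran from 21.9 to 25.1 FPKM in si-Control libraries and from 23.5 to 26.3 FPKM in si-*Fndc1* libraries, which overlap. *Id3* took between 23.1% and 25.8% of this sum in si-Control and between 18.5% and 22.1% in si-*Fndc1*, ranges that do not overlap. *Id2* took 34.9% to 44.1% and 39.6% to 48.1%, and *Id1* 31.3% to 39.2% and 32.0% to 39.5%, so that both overlapped. These shares are given as a description, with no test. They use levels without the correction for GC content and length, with which *Id2* lost its call. The share of *Id3* depends on the other Id genes as well, and *Id3* itself was not called.

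The partners of Id proteins include genes that fell and 1 that rose. Of the 8 E protein and myogenic basic helix-loop-helix genes listed, 6 were tested, 1 rose, 2 fell and 3 were not called (median log2 fold change -0.07), beside 34.4% of all tested genes called, and 4 were called in the GC-corrected fit. *Tcf3*, which encodes the E proteins E12 and E47, fell from 21.6 to 16.3 FPKM (log2 fold change -0.40, SE 0.04, adjusted p = 7.83e-05), and -0.14 remained in the GC-corrected fit (adjusted p = 0.0321). *Tcf4*, another E protein gene, fell by 0.24 on the log2 scale (SE 0.07, adjusted p = 0.0162), a call that the GC-corrected fit did not keep (log2 fold change -0.17, adjusted p = 0.0599). *Myod1*, the muscle determination factor, rose from 41.9 to 46.7 FPKM (log2 fold change 0.16, SE 0.04, adjusted p = 0.0162; 0.24 with adjusted p = 0.00147 in the GC-corrected fit). *Myog*, which acts later in differentiation, had a log2 fold change of -0.12 (adjusted p = 0.137), which was called at -0.18 in the GC-corrected fit (adjusted p = 0.0218) and at -0.16 without si-*Fndc1* replicate 4 (adjusted p = 0.0229). *Myf5* was not called at 0.12 (adjusted p = 0.181), but was called as lower in the GC-corrected fit (-0.22, adjusted p = 0.0153). The E protein gene *Tcf12* was not called in either fit, at -0.02 (adjusted p = 0.956) and 0.03 (adjusted p = 0.905).

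Summed over *Tcf3*, *Tcf4* and *Tcf12*, E protein transcripts lay at 33.3 to 37.0 FPKM in si-Control and at 27.1 to 29.8 FPKM in si-*Fndc1*. The highest sum was that of si-Control replicate 4, where *Tcf12* also had its highest level, 11.6 FPKM. The ratio of Id to E protein transcripts ran from 0.592 to 0.755 over the si-Control libraries and from 0.790 to 0.944 over the si-*Fndc1* libraries, with no overlap. Relative to *Myod1*, by contrast, the Id sum lay between 0.520 and 0.598 in si-Control and between 0.490 and 0.566 in si-*Fndc1*, and the groups overlapped. The 2 ratios were formed after the values were known and carry no test. They use levels without the correction for GC content and length, which moved the fold changes of *Id2* and *Tcf3*. Their size also depends on the length by which each gene's FPKM was divided.

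**Figure D3:**
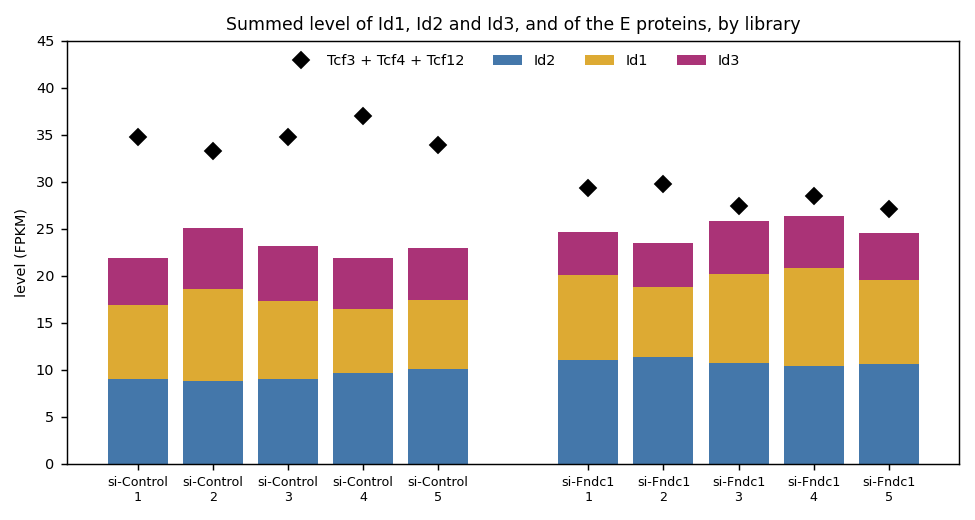
Stacked bars give the FPKM of *Id1*, *Id2* and *Id3* in each of the 10 libraries, and diamonds give the sum of *Tcf3*, *Tcf4* and *Tcf12*. The bars reach similar heights in both groups, and the 5 si-*Fndc1* diamonds, at 27.1 to 29.8 FPKM, lie below the 5 si-Control diamonds, at 33.3 to 37.0 FPKM.

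*Bmp4* (ENSMUSG00000021835, chromosome 14 from 46620977 to 46628126, minus strand) was the only BMP ligand gene above the minimum. In si-Control it lay at 5.98, 13.5, 12.6, 14.2 and 12.7 FPKM, and in si-*Fndc1* at 11.7, 13.0, 11.7, 6.14 and 12.1 FPKM. One library in each group, si-Control replicate 1 and si-*Fndc1* replicate 4, was at about the same low level, and the other 8 libraries lay between 11.7 and 14.2 FPKM. The means were 11.8 ± 3.30 and 10.9 ± 2.72 FPKM (SD, n = 5 each; two-sided exact permutation test, p = 0.5), with a log2 fold change of -0.10 (SE 0.24, adjusted p = 0.786). Leaving out si-*Fndc1* replicate 4 turned the log2 fold change to 0.05 (adjusted p = 0.882), and leaving out si-Control replicate 1 gave -0.27 (adjusted p = 0.293). Without both it was -0.12 (adjusted p = 0.187), so that *Bmp4* was called in none of these fits. The low values rest on 1137 and 1105 counts. A noncoding gene on the opposite strand, *Gm15222*, overlaps *Bmp4*, and whether reads were counted by strand is not stated. Its part in the counts of *Bmp4*, the low values included, was not tested.

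Of 13 further BMP and GDF ligand genes that were listed, among them *Bmp2*, *Bmp6*, *Bmp7* and *Gdf5*, none reached the minimum, and 4 were listed without a count in all 10 libraries. Together they summed to 1.08 to 1.32 FPKM in si-Control and 0.887 to 1.15 FPKM in si-*Fndc1*, against a mean of 11.8 FPKM for *Bmp4* in si-Control.

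*Bmp1* (ENSMUSG00000022098, chromosome 14 from 70711998 to 70757628, minus strand) carries a BMP name but encodes a tolloid metalloprotease, which cleaves procollagen and the BMP antagonist chordin. It lay at 48.0, 46.0, 50.9, 47.7 and 50.6 FPKM in si-Control and at 40.5, 42.0, 40.9, 41.9 and 41.3 FPKM in si-*Fndc1*. The knockdown libraries were lower throughout and closer to each other than the control libraries. The mean fell from 48.6 ± 2.08 to 41.3 ± 0.635 FPKM (SD, n = 5 each), a ratio of 0.850 (p = 0.00794 by the exact permutation test). Its log2 fold change of -0.23 (SE 0.03, adjusted p = 0.000512) became 0.06 in the GC-corrected fit (adjusted p = 0.205), so that both the call and the direction were lost. The other tolloid genes, *Tll1* and *Tll2*, were below the minimum. *Pcolce* and *Pcolce2*, which encode enhancers of procollagen cleavage, were tested and not called, with log2 fold changes of -0.06 (adjusted p = 0.505) and -0.03 (adjusted p = 0.803). In the GC-corrected fit that of *Pcolce* was 0.14 (adjusted p = 0.0900).

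*Bmpr1a* (ENSMUSG00000021796, chromosome 14 from 34132691 to 34224644, minus strand) encodes the type I receptor also known as ALK3, which binds *Bmp2* and *Bmp4* products. Its level in si-Control was 21.8, 21.3, 20.9, 22.3 and 22.5 FPKM. In si-*Fndc1* it was 28.1, 25.7, 26.4, 26.2 and 28.2 FPKM. All knockdown libraries lay above all control libraries, with a gap between the groups larger than the range within either group. The mean rose from 21.8 ± 0.667 to 26.9 ± 1.14 FPKM (SD, n = 5 each), a ratio of 1.24 (p = 0.00794 by the exact permutation test). *Bmpr1a* had a log2 fold change of 0.31 (SE 0.03, adjusted p = 8.35e-05). It kept its call in the GC-corrected fit at a smaller size, 0.14 (adjusted p = 0.00729).

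*Bmpr2* (ENSMUSG00000067336, chromosome 1 from 59802559 to 59918173, plus strand), the type II receptor that pairs with *Bmpr1a*, did not follow it. Its values were 9.56, 8.62, 8.79, 9.28 and 9.18 FPKM in si-Control and 8.15, 9.16, 7.82, 7.90 and 8.61 FPKM in si-*Fndc1*. All si-*Fndc1* libraries except replicate 2 lay below the lowest control library, replicate 5 only just. The means were 9.09 ± 0.376 and 8.33 ± 0.557 FPKM (SD, n = 5 each; two-sided exact permutation test, p = 0.0317, unadjusted for the 10 genes so tested). In the fit across all genes the log2 fold change of -0.12 (SE 0.05) was not called (adjusted p = 0.0769), and it was -0.04 in the GC-corrected fit (adjusted p = 0.497). Leaving out any of 6 single libraries took the exact p above 0.05, to at most 0.0794. By edgeR *Bmpr2* was called only when si-*Fndc1* replicate 2, the highest knockdown library, was left out (-0.16, adjusted p = 0.0124). The ratio of *Bmpr1a* to *Bmpr2* lay between 2.28 and 2.47 in si-Control and between 2.80 and 3.45 in si-*Fndc1*, given as a description. It is not GC-corrected, and the log2 fold changes of the 2 genes lay closer in the GC-corrected fit (0.14 and -0.04) than before (0.31 and -0.12).

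Of 9 other receptor and coreceptor genes listed, 6 were tested, none rose, 1 fell and 5 were not called, against 34.4% called among all tested genes. The median log2 fold change was -0.08, and 2 were called in the GC-corrected fit. The gene that fell was *Rgma*, a glycosylphosphatidylinositol-anchored BMP coreceptor, from 14.1 to 9.89 FPKM (log2 fold change -0.50, SE 0.04, adjusted p = 2.03e-05). It also fell in the GC-corrected fit (-0.22, adjusted p = 0.00149). *Bmpr1b*, the other BMP type I receptor closest to *Bmpr1a*, had a log2 fold change of -0.22 (adjusted p = 0.104), which was -0.38 and called in the GC-corrected fit (adjusted p = 0.0157). *Acvr2a*, a type II receptor, and *Rgmb*, a coreceptor, were not called at 0.09 (adjusted p = 0.328) and -0.11 (adjusted p = 0.414), and *Acvr2a* had the opposite sign in the GC-corrected fit (-0.12, adjusted p = 0.259).

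*Smad7* (ENSMUSG00000025880, chromosome 18 from 75500600 to 75529006, plus strand), an inhibitory Smad that acts on both BMP and TGF-β receptors, showed the largest fold change of the 9 genes. Its level in si-Control was 4.83, 4.65, 5.15, 4.68 and 4.96 FPKM. In si-*Fndc1* it was 3.52, 3.41, 3.28, 3.71 and 3.21 FPKM. The groups lay far apart relative to the range within each. The mean fell from 4.86 ± 0.206 to 3.43 ± 0.201 FPKM (SD, n = 5 each), a ratio of 0.706 (p = 0.00794 by the exact permutation test). With a log2 fold change of -0.49 (SE 0.06, adjusted p = 9.97e-05) *Smad7* was called, and it was still called at -0.32 in the GC-corrected fit (adjusted p = 0.00126).

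*Smad6* (ENSMUSG00000036867, chromosome 9 from 63860358 to 63929341, minus strand), the inhibitory Smad that acts mainly on the BMP branch, was expressed at a lower level than *Smad7*. It lay at 2.01, 1.499, 1.45, 1.95 and 1.47 FPKM in si-Control and at 1.53, 1.41, 1.17, 1.37 and 1.33 FPKM in si-*Fndc1*. Control libraries 1 and 4 stood above the rest, and the other three overlapped with the knockdown libraries. The means were 1.68 ± 0.279 and 1.36 ± 0.131 FPKM (SD, n = 5 each; two-sided exact permutation test, p = 0.0397, unadjusted), and the exact p passed 0.05 when any of 6 single libraries was left out, reaching 0.135 without si-*Fndc1* replicate 3. The log2 fold change of -0.30 (SE 0.12) was not called (adjusted p = 0.0879). *Smad6* has the highest GC content of the 9 genes, 61.8%, and its log2 fold change in the GC-corrected fit was -0.05 (adjusted p = 0.809).

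**Figure D4:**
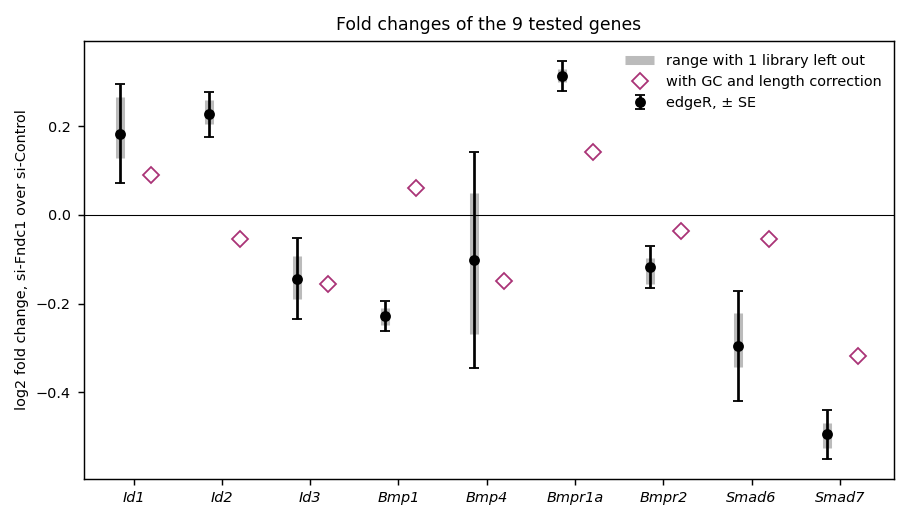
Black points give the log2 fold change of the 9 tested genes with the standard error, grey bars the range when each library in turn is left out, and open diamonds the GC-corrected fit. *Id1* and *Bmpr1a* stay above 0, and *Id3*, *Bmpr2*, *Smad6* and *Smad7* below 0, in all of these. *Id2* and *Bmp1* cross 0 with the correction, and the grey bar of *Bmp4* spans 0.

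Downstream of the receptors, 1 of 3 tested genes for receptor-regulated Smads and Smad4 fell, none rose and 2 were not called, with a median log2 fold change of -0.09, beside 17.2% of all tested genes called as lower. *Smad1* fell from 7.22 to 5.45 FPKM (log2 fold change -0.40, SE 0.04, adjusted p = 9.70e-05), and it was also called in the GC-corrected fit (-0.32, adjusted p = 0.000454). *Smad4*, the common partner, and *Smad5* were not called, at -0.09 (adjusted p = 0.325) and 0.20 (adjusted p = 0.335). With 1 library left out these values ran from -0.13 to -0.046 for *Smad4*, the latter without si-Control replicate 1, and from 0.095 to 0.30 for *Smad5*, the former without si-Control replicate 2. *Smad9* was below the minimum.

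Among intracellular regulators of Smads, 2 of 7 tested genes fell, none rose and 5 were not called (median -0.12), beside 17.2% of all tested genes called as lower. *Tob1*, which encodes an antiproliferative protein that binds Smads, fell by 0.19 on the log2 scale (adjusted p = 0.0130), and by 0.40 in the GC-corrected fit (adjusted p = 0.00126). *Ski*, a Smad corepressor gene, had a log2 fold change of -0.13 (adjusted p = 0.0283), which turned to 0.03 in the GC-corrected fit (adjusted p = 0.503). Its call was also lost, with adjusted p of at most 0.0724, when replicate 3 or 5 of si-Control or replicate 3, 4 or 5 of si-*Fndc1* was left out. *Nedd4l* and *Smurf2*, genes of ubiquitin ligases for Smads and receptors, were not called at -0.17 (adjusted p = 0.147) and 0.06 (adjusted p = 0.326).

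Of 15 BMP antagonist genes listed, 11 were tested, 1 rose, 5 fell and 5 were not called, beside 34.4% of all tested genes called. Their median log2 fold change was -0.11, and 3 were called in the GC-corrected fit, beside 22.7% of all genes. *Nog*, which encodes the BMP antagonist noggin, fell from 0.853 to 0.496 FPKM (log2 fold change -0.76, SE 0.19, adjusted p = 0.0107; GC-corrected fit -0.72, adjusted p = 0.0209). *Fstl3*, a follistatin-like gene whose product binds activin and myostatin more than BMPs, fell from 24.8 to 18.8 FPKM (log2 fold change -0.39, adjusted p = 6.96e-05; GC-corrected fit -0.31, adjusted p = 0.000409). *Crim1*, a transmembrane BMP-binding protein gene, fell by 0.28 on the log2 scale (adjusted p = 0.00591; GC-corrected fit -0.24, adjusted p = 0.0153). *Grem1*, which encodes gremlin and was the most abundant of these 4, rose from 51.1 to 58.1 FPKM (log2 fold change 0.19, adjusted p = 0.0107), without a call in the GC-corrected fit (0.06, adjusted p = 0.412).

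Transcription factor genes known as BMP targets in osteoblasts and other cells made up the last group. Of 10 listed, 7 were tested, none rose, 3 fell and 4 were not called, beside 17.2% of all tested genes called as lower. The median log2 fold change was -0.23, and 2 were called in the GC-corrected fit. *Dlx3* fell from 1.45 to 0.941 FPKM (log2 fold change -0.62, SE 0.17, adjusted p = 0.0155; GC-corrected fit -0.54, adjusted p = 0.0333). *Runx2*, the osteoblast lineage factor, fell by 0.23 on the log2 scale (adjusted p = 0.00717; GC-corrected fit -0.14, adjusted p = 0.0498). *Msx1*, a homeobox gene, was called at -0.22 (adjusted p = 0.0404) but not in the GC-corrected fit (-0.06, adjusted p = 0.572), nor, with adjusted p of at most 0.0952, when replicate 2, 4 or 5 of si-Control or any si-*Fndc1* library was left out. *Hey1*, a target shared with Notch signaling, was not called at -0.37 (adjusted p = 0.0944) unless si-Control replicate 3 was left out (-0.46, adjusted p = 0.0367).

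**Figure D5:**
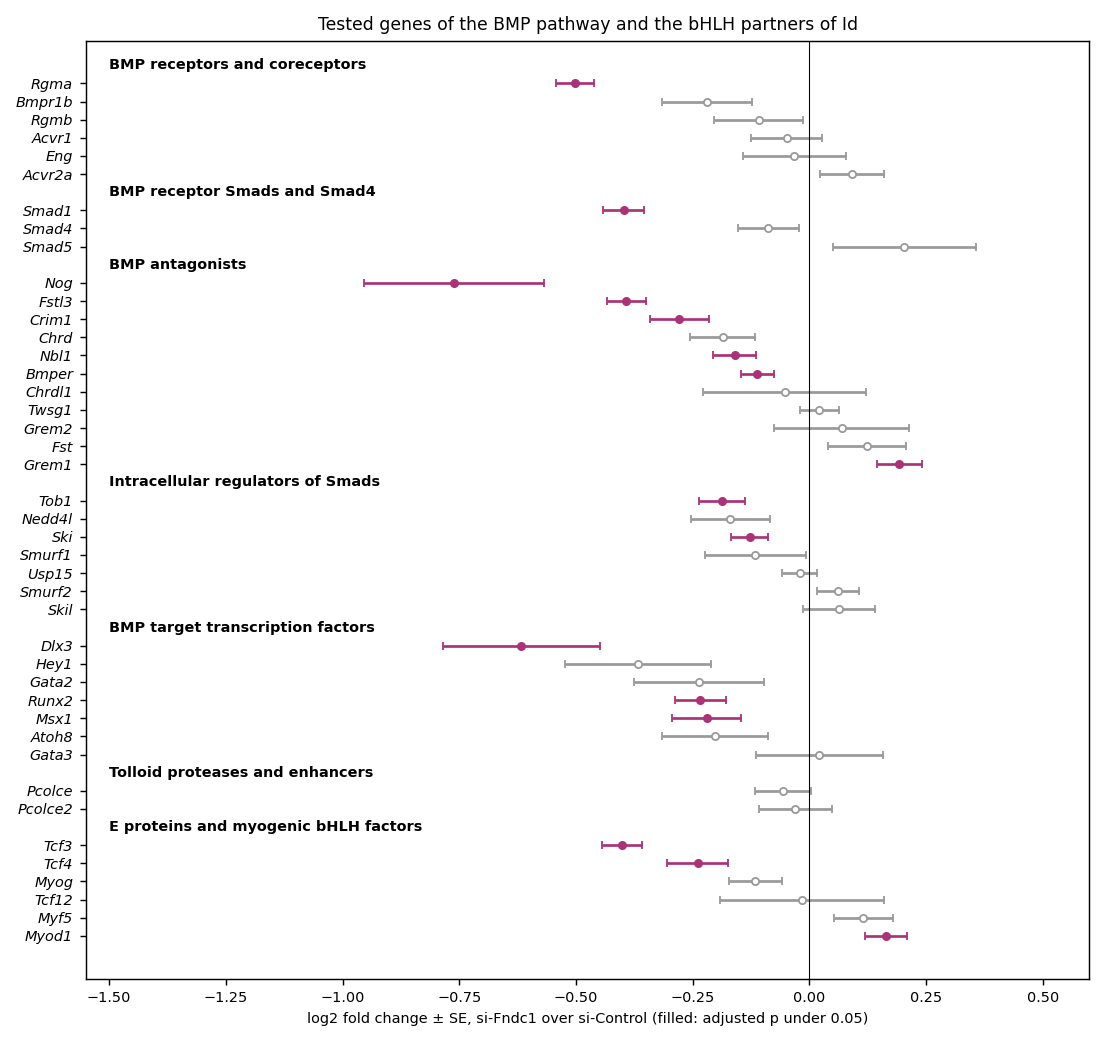
Each point is the log2 fold change of a tested gene of the BMP pathway or of an Id partner with its standard error, grouped by role, and filled points have an adjusted p-value under 0.05 before GC correction. *Grem1* and *Myod1* are the only filled points above 0, and *Nog*, *Dlx3* and *Rgma* have the lowest values.

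The genes whose course over the 10 libraries was closest to *Id2* were *Ccar1*, *Zfand3* and *Zdhhc17*, with a root mean square distance of 0.035, 0.039 and 0.039 on the centered log2 scale. Their log2 fold changes were 0.25, 0.19 and 0.20. For *Bmpr1a* the closest were *Mtap*, *Frg1* and *Ikbip*, at distances of 0.034, 0.036 and 0.039 and log2 fold changes of 0.28, 0.31 and 0.36. The distances were taken over the same 10 libraries and describe likeness only.

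Markers of other cell types were examined in the same libraries. The 8 myogenic markers were all tested, and their summed level was 3544 to 3979 FPKM in si-Control and 3384 to 4125 FPKM in si-*Fndc1*. The muscle genes were thus high in every library, whichever the siRNA. Of these markers 4 rose and none fell, beside 17.3% of all tested genes called as higher. They were *Myod1*, *Ckm*, the muscle creatine kinase gene (log2 fold change 0.39, adjusted p = 0.000201), *Tnnt1*, a slow troponin gene (0.36, adjusted p = 0.00308), and *Mymk*, the gene of the fusion protein myomaker (0.26, adjusted p = 0.0188). *Mymk* lost its call in the GC-corrected fit (0.20, adjusted p = 0.116), and the other 3 kept theirs. The 4 not called were *Myog*, *Myh3*, *Des* and *Acta1*, at -0.12, -0.17, -0.04 and 0.07 (adjusted p of 0.137 or above). In the GC-corrected fit *Myog* was called as lower (-0.18, adjusted p = 0.0218) and *Des* as higher (0.10, adjusted p = 0.0386). Osteoblast markers were nearly absent apart from *Runx2*, with *Ibsp*, *Alpl* and *Dlx5* at 0 counts in all libraries. Counts of *Bglap*, also below the minimum, were 0, 0, 0, 7 and 6 in si-Control and 23, 4, 13, 14 and 6 in si-*Fndc1*. Those groups overlapped. The 6 adipocyte markers summed to at most 1.61 FPKM, the 6 endothelial markers to at most 0.434 FPKM and the 6 blood and immune markers to at most 2.88 FPKM in any library. Those that were tested, *Pparg*, *Hba-a1* and *Cd68*, were not called, with log2 fold changes of 0.17, 0.42 and -0.18 (adjusted p = 0.150, 0.352 and 0.556). Below the minimum, the hemoglobin gene *Hbb-bs* had counts of 0, 1, 0, 0 and 0 in si-Control and 7, 36, 33, 29 and 0 in si-*Fndc1*. *Ptprc* and *Cd3e* had 0 in all libraries.

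All 8 hepatocyte markers rose in si-*Fndc1*, with a median log2 fold change of 5.55. Their summed level was 0.175 to 5.24 FPKM in si-Control and 41.4 to 156 FPKM in si-*Fndc1*, and none of the 8 was at 0 throughout. The 4 with the smallest p-values were *Apoh*, *Apoa2*, *Ahsg* and *Apoa1*, genes of proteins that the liver secretes, with log2 fold changes of 3.49, 6.41, 6.29 and 6.27. These transcripts moved with the knockdown label, as the 4 called genes did, and their part in the values of *Id2*, *Bmpr1a*, *Bmp1* and *Smad7* was not tested.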

How the data were processed

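RNA from 10 libraries of C2C12 cells was sequenced, 5 of si-Control and 5 of si-*Fndc1*, with groups and replicate numbers taken from the labels. The authors deposited 1 table with a count for each gene and library, not normalized, and beside it an FPKM value, the count scaled by a length for each gene and by library size. The paper's methods name TopHat, mm10, htseq-count and DESeq2 and fewer libraries than the table holds, the series' own description gives STAR with mm9, and the submitters' processing notes name GRCm39, cutadapt 1.9 and FastQC, so coordinates are printed as the table lists them, with its build not settled. Whether counting used strand is not given in the sources used here. The deposited counts favor multiples of 4 (10699 values of 4 against 3967 of 3 and 2243 of 5), so that a count need not be 1 read, and no counting intervals or floors are given. Counts of libraries of the same group differed by more than sampling noise in every pair (a chi-square of 41.5 or more for each degree of freedom, a value that the multiples of 4 inflate).

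From the deposited counts, edgeR 4.0.16 (quasi-likelihood test, TMM normalization, R 4.3.3) was fitted to genes averaging 0.5 FPKM or more, without a replicate term, and p-values were adjusted over all of them by the Benjamini-Hochberg method. The standard error is the size of the log2 fold change divided by the square root of F. Levels in FPKM were compared by two-sided exact permutation tests, 5 against 5, for the 10 genes and *Fndc1*. The GC-corrected fit used as an offset the trend of log counts (0.5 added) with GC content and length in each library, by splines of 5 degrees of freedom, for the 82.6% of tested genes with both values. GC content came from the longest coding transcript of NCBIM37 matched by gene identifier, and length from the ratio of the authors' count to their FPKM. Alternatives were DESeq2 1.42.0, limma 3.58.1 on log2(FPKM + 1) or log2(FPKM + 0.1), other normalizations and filters, leaving out each library, and a replicate block. The scripts were tested on simulated data.

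The 10 genes, the lists and the tests were chosen with earlier results of these data known. From every list the 4 tested genes with the smallest p-values are named (all of a list of 5 or fewer), and for the Id gene and the other gene with the smallest p-value the 3 genes closest over the libraries. Genes below the minimum, *Gm15222*, the myogenic markers *Myh3*, *Des* and *Acta1*, and *Myf5* and *Tcf12* are named outside this rule, after their values were seen. A further part of the deposited table, gene annotation terms, was not used. All columns of values belong to a library of the labels.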

Additional observations from a re-analysis of the deposited data

Results flagged for a closer look

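In 3 groups of 5 libraries, 1 library lay far from the other 4 by Dixon's test (critical value 0.71). *Bmp4* was lowest in si-Control replicate 1, at 5.98 FPKM, and in si-*Fndc1* replicate 4, at 6.14 FPKM. *Id4* was highest in si-Control replicate 4, at 0.0770 FPKM, which rests on 24 counts. The test was run on 20 groups, 10 genes in 2 groups each, and chance marks about 1 in 20. What set these libraries apart was not tested.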

How the results depend on the processing

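Across the alternatives, 199 of 205 values of the 9 tested genes kept their direction and their side of the threshold, as did 539 of 588 values of the named list genes and *Fndc1*. With the GC and length correction, and with it and the replicate block together, 2535 and 1648 genes were called in place of 4663, and 2 and 2 of the 9 in place of 4. On the same genes without the correction 4244 were called, and 1764 genes were called in the same direction by both. The log2 fold change of *Id2* was -0.055 and -0.054 (adjusted p = 0.589 and 0.689), that of *Bmp1* 0.061 in both (adjusted p = 0.205 and 0.280), that of *Acvr2a* -0.12 in both, that of *Ski* 0.033 and 0.032 and that of *Pcolce* 0.14 in both. *Tcf3*, *Runx2* and *Crim1* lost their calls only with correction and block together (adjusted p = 0.0906, 0.0990 and 0.0601).

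With 1 library left out, the number of genes called ran from 4000 to 4627. The log2 fold change of *Bmp4* ran from -0.27 to 0.050 and its difference in level from -2.30 to 0.339 FPKM, that of *Bmpr2* from -0.16 to -0.10, and that of *Pcolce2* from -0.076 to 0.018. *Ski* and *Msx1* lost their calls when any of several single libraries was left out. Same-numbered libraries did not deviate together (correlations of -0.043 to 0.055), so the numbers are not taken as pairs. With the replicate block alone 3572 genes were called, and 4 of the 9, with *Id2* at 0.23 (adjusted p = 0.0375), and the calls of *Tob1*, *Ski*, *Msx1* and *Myod1* were lost. Quantile-normalized FPKM, tested with limma, also lost *Myod1* and *Grem1* and called *Myog* (-0.26, adjusted p = 0.00254).

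The fit on the same genes without the correction, the fit without both libraries low in *Bmp4* and the fit on counts divided by 4 were added after the data were seen. Without both libraries low in *Bmp4*, 3635 genes were called, with counts divided by 4, 4644, and 4 of the 9 in each. A minimum of 5 FPKM left *Smad6* and *Smad7* untested. The low counts of *Id4* allow no fold change.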
